A study of Mus musculus with 12 samples.

Results

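The abundant long noncoding RNAs of a mouse mesenchymal line were described in 12 RNAseq libraries. The members were selected on measured values: of 10312 genes typed lncRNA among the 56350 genes counted, 53 had a mean raw count of at least 1000 in at least 1 of the 4 conditions. 2610528A11Rik and AU021092 were left out beforehand, and both are typed protein-coding in the count table, so that this removed no lncRNA. The cells were MPC2, a mouse line of mesenchymal progenitors that derives from 1 clone and whose immortalization is conditional. MSCs were these cells undifferentiated and proliferating at the permissive temperature, and osteocytes were the same cells kept for 3 weeks at a raised temperature in osteogenic media, so that temperature, media and differentiation changed together. Each state was treated for 48 hours with the vehicle DMSO or with 50 µM FG-4592 (Roxadustat), an inhibitor of the HIF prolyl hydroxylases, so that there were 4 conditions, with 3 libraries in each. The labels name no batch and do not say that libraries came from separate cultures, so that p-values measure only the spread between these libraries.

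Long noncoding RNAs are transcripts that are not read into a long protein. Some act as RNAs, as Neat1 does as the scaffold of the paraspeckle and Malat1 in nuclear speckles, and others are hosts, which carry microRNAs or small nucleolar RNAs in their exons or introns and release them when the transcript is processed. FG-4592 stabilizes the HIF transcription factors, which bind a short core motif in promoters and enhancers, and H19, an imprinted RNA made from the maternal allele and a host of miR-675, is known as a transcript of embryonic mesoderm that is silenced in most adult tissues.

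The microRNAs carried by the hosts are shown because only the host transcripts were counted here, and not the small RNAs. Of the 53 members, 5 held a gene typed as a microRNA within their span on the same strand: 3110039I08Rik (Mir100hg in RefSeq), Dnm3os, H19, Mir22hg and Zswim6, whose gene Gm22118 has no microRNA name and is not shown. The other 4 are called microRNA hosts here. The mature sequences below are from RefSeq (GRCm38.p6), with the seed, bases 2 to 8, in capitals. No seed was shared between the 6 shown.
miR-100-5p in 3110039I08Rik: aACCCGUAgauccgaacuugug
miR-125b-5p in 3110039I08Rik: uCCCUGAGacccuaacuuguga
miR-199a-3p in Dnm3os: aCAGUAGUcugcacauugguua
miR-214-3p in Dnm3os: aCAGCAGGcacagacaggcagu
miR-675-5p in H19: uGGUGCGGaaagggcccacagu
miR-22-3p in Mir22hg: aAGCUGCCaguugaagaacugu

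Promoters are shown for Dubr, F730043M19Rik and AU020206, which had the largest fitted log2 fold changes with FG-4592 in MSCs. In osteocytes AU020206 (0.72) was below H19 (2.91), Gm13415 (1.29), Zfas1 (1.18), AC161119.1 (1.11) and 2410006H16Rik (0.77). A promoter here is the window from 250 bases before to 50 bases after a gene's start, and 39 members matched 49 promoters. The core of the HIF motif was searched as ACGTG and as GCGTG on both strands, and matches are in capitals. Of the members' promoters, 30 of 49 held at least 1 match, and 43.8% of all 32851 promoters in the table did. ACGTG alone was found in 15 of the 49, and in 19.6% of all promoters. The promoter of Dubr held 3 matches, and 8.93% of all promoters held 3 or more. The first of them began 44 bases and the second 4 bases before the start. That of F730043M19Rik held 1, which began 48 bases before the start, and AU020206 held 0 in this window. Of those not shown, Gm13415 and Zfas1 held 0 and 2410006H16Rik held 2. H19, Neat1, Peg13 and Gm42047 had no promoter entry. A match describes the letters only.
Dubr (chr16:50732724-50733023, minus strand, GRCm38.p6): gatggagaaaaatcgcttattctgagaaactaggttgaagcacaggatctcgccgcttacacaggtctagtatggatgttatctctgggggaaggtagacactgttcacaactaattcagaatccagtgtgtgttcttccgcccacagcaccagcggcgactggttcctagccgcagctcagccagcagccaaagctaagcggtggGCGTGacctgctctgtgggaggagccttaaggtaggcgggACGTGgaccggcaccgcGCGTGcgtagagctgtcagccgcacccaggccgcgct
F730043M19Rik (chr12:33147537-33147836, minus strand, GRCm38.p6): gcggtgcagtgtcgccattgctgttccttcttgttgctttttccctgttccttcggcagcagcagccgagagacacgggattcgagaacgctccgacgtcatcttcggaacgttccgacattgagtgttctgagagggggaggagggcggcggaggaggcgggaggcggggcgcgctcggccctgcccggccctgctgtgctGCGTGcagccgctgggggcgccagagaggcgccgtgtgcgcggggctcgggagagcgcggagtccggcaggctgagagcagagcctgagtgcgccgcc
AU020206 (chr7:75782071-75782370, minus strand, GRCm38.p6): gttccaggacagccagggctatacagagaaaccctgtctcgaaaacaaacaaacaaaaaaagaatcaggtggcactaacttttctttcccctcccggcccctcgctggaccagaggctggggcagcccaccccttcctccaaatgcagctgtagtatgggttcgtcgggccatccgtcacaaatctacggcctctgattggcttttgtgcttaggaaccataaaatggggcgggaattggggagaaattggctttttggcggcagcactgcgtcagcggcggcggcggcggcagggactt

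Levels below are CPM, counts divided by library sizes that were scaled with TMM factors, and RPKM, the same per kilobase of the exonic length in the table. The library preparation enriched mRNA, so that levels describe the RNAs that this step retained. Library totals lay between 52829185 and 68108470 counts. The coefficient of variation of a member within a condition had a median of 7.77% and reached 48.2% (Ndufb1-ps in vehicle-treated osteocytes). A check on treatment, 8 HIF targets, gave 6 called up in MSCs and 8 in osteocytes, against 4.12% and 6.25% of all genes tested. Of 14 osteoblast and osteocyte markers, 11 were tested. Of these, 3 were called up and 0 down in vehicle-treated osteocytes against MSCs, beside 9.83% and 6.08% of all genes tested. At an FDR below 0.05 alone 6 were higher and 2 lower, Ibsp (log2 fold change −0.74) and Alpl (−0.33). Sost was at 0 counts in all 12 libraries. In the same comparison 4 of 5 adipocyte markers were called up, and Lep was not tested. The summed level of the 5 was 11.4 to 13.3 CPM in vehicle-treated MSCs and 1580 to 2170 CPM in vehicle-treated osteocytes. In these bulk samples fewer cells of a type cannot be told apart from less of an RNA per cell.

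The 53 members took 0.658% to 0.979% of the counts of a library, and 78.4% to 83.1% of the counts on all lncRNA genes. A few RNAs held most of this. Gm42418 had the highest level, with a mean of 1570 RPKM over the 4 conditions and 0.203% to 0.418% of a library. RefSeq names it Rn18s-rs5, a ribosomal RNA related sequence, and types it as a pseudogene. The 12 libraries gave 2880, 2160 and 2600 CPM in vehicle-treated MSCs, 2710, 4080 and 2260 CPM in FG-4592-treated MSCs, 2720, 3010 and 2760 CPM in vehicle-treated osteocytes and 2130, 4420 and 2880 CPM in FG-4592-treated osteocytes. The libraries of every condition overlapped those of the others, and no contrast passed the FDR cutoff (FDR = 0.41 in MSCs and 0.615 in osteocytes for FG-4592 against vehicle).

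Bc1, a short RNA polymerase III transcript best known from neurons, was next with 457 RPKM over its 168 bases. Its libraries gave 47.9, 62.2 and 47.7 CPM in vehicle-treated MSCs, 51.9, 65.0 and 40.0 CPM in FG-4592-treated MSCs, 111, 90.4 and 74.8 CPM in vehicle-treated osteocytes and 95.4, 84.4 and 150 CPM in FG-4592-treated osteocytes. FG-4592-treated and vehicle-treated libraries overlapped in both states, while each vehicle-treated osteocyte library was above all vehicle-treated MSC libraries (log2 fold change 0.81 ± 0.203 (SE), FDR = 0.00334). Gm10076 had 263 RPKM, with 151, 152 and 103 CPM in vehicle-treated MSCs, 124, 90.0 and 87.7 CPM in FG-4592-treated MSCs, 51.5, 96.3 and 95.7 CPM in vehicle-treated osteocytes and 87.5, 83.9 and 90.6 CPM in FG-4592-treated osteocytes. Its exons match those of the ribosomal protein gene Rpl41 at 99.5% identity over 99.7% of its length, so that reads of both genes could be exchanged and its values are uncertain. Malat1 had 131 RPKM and H19 118 RPKM, a mean that rests on the osteocyte libraries. 2900097C17Rik (Norad, which binds the Pumilio proteins) had 101 RPKM.

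Among the 53, 34 reached 1000 counts in all 4 conditions, 1 in 3, 8 in 2 and 10 in 1. The closest to the threshold were E430024I08Rik (1003.7 counts in its highest condition) and Gm34256 (1019.0) inside it, and Gm49980 (999.3) and 9130221H12Rik (956.3) outside. The highest condition was FG-4592-treated osteocytes for 23 members, vehicle-treated MSCs for 14, vehicle-treated osteocytes for 10 and FG-4592-treated MSCs for 6. The selection set part of this tally. 2810013P06Rik, 6530402F18Rik, AI480526, E430024I08Rik, F730043M19Rik and Zfas1 reached 1000 counts only in FG-4592-treated osteocytes. Gm15398, Gm17501 and Gm34256 did so only in vehicle-treated MSCs, and Gm13415 only in FG-4592-treated MSCs. The ratio of the highest to the lowest condition had a median of 1.67 and was above 2 for 18 members, up to 1120 for H19, as the heat map of all members shows.

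**Figure D1:**
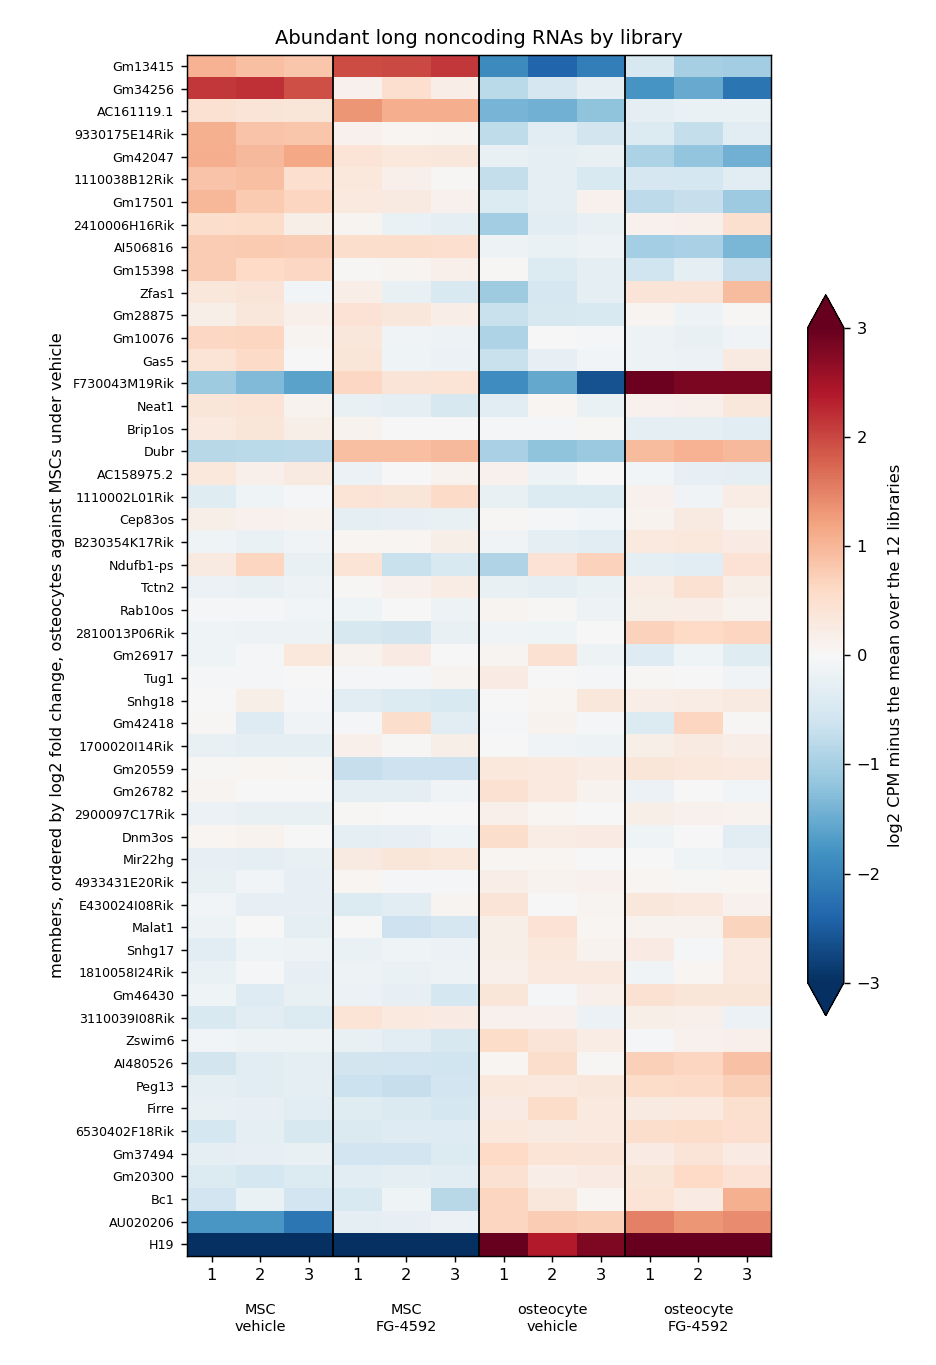
Heat map of the 53 members (rows) in the 12 libraries (columns, 3 for each condition), coloured by log2 CPM minus the member's mean over the libraries, with colours ending at 3 in either direction. Members are ordered by the log2 fold change of vehicle-treated osteocytes against vehicle-treated MSCs, and H19, F730043M19Rik, Gm13415, Gm34256 and AU020206 have the widest ratios between their highest and lowest conditions.

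In each contrast a member was tested only if it had a mean of 1000 counts in every condition compared, because its selection then did not depend on the direction of the difference. The others are described by their values with no test. Here called means past both cutoffs, a log2 fold change beyond 1 in either direction and an FDR below 0.05 after adjustment over all 16484 genes tested in edgeR. With FG-4592 in MSCs, 1 of 36 members was called up and 0 down, whereas 4.12% of all genes tested were called up and 5.17% down. Of the 7475 genes of any type at 1000 counts in both conditions, 2.03% were called up and 0.99% down. In osteocytes 2 of 39 members were called up and 0 down, against 6.25% and 4.26% of all genes tested and 3.25% and 1.53% of 7561 abundant genes. Between vehicle-treated osteocytes and MSCs 0 of 35 members were called up and 2 down, against 9.83% and 6.08% of all genes tested and 2.62% and 1.87% of 7394 abundant genes. The difference between both responses to FG-4592 was called up for 1 of 34 members and down for 0, against 3.94% and 1.07% of all genes tested and 1.18% and 0.437% of 7092 abundant genes. The members' shares in the directions with calls, 2.78%, 5.13%, 5.71% and 2.94%, rest on 1 or 2 genes each. Where edgeR called 0 members, 16 were lower in MSCs and 10 in osteocytes with FG-4592, 16 higher between the states and 6 lower for the response difference at an unadjusted p under 0.05, of which 0 passed the fold cutoff. DESeq2 called the same members.

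Small differences were frequent. Under the FDR cutoff alone, 21 of 36 members (58.3%) passed with FG-4592 in MSCs, 18 of 39 (46.2%) in osteocytes, 26 of 35 (74.3%) between the vehicle-treated states and 12 of 34 (35.3%) for the difference between responses. The corresponding shares of abundant genes were 50.0%, 59.0%, 61.7% and 35.7%. In MSCs the median log2 fold change of the members tested was −0.21, with 14 under the FDR cutoff lower and 6 higher beside the called one. In osteocytes it was 0.06, with 8 lower and 8 higher. The medians of abundant genes were within 0.02 of 0 in every contrast.

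H19 (chr7:142575529-142578143, minus strand, ENSMUSG00000000031.16) had the widest range. It was measured at 1.36, 2.07 and 0.864 CPM in vehicle-treated MSCs, 0.638, 0.924 and 1.19 CPM in FG-4592-treated MSCs, 163, 104 and 141 CPM in vehicle-treated osteocytes and 891, 990 and 1190 CPM in FG-4592-treated osteocytes. Every osteocyte library was above every MSC library, and every FG-4592-treated osteocyte library was above every vehicle-treated one. In osteocytes H19 rose 7.52-fold with FG-4592 (log2 fold change 2.91 ± 0.175 (SE), FDR = 1.14e-09). In MSCs the libraries overlapped, with means of 1.43 ± 0.606 CPM under vehicle and 0.916 ± 0.275 CPM under FG-4592 (SD, n = 3), and no test was made there or between the states, where the fitted log2 difference under vehicle was 6.58 ± 0.237 (SE). Igf2, the imprinted growth factor gene beside H19, rose from 0.0566 CPM in vehicle-treated MSCs to 1.58 CPM in vehicle-treated osteocytes (log2 fold change 4.77 ± 0.502 (SE), FDR = 7.57e-07). Its libraries held 3 to 4 counts in vehicle-treated MSCs and 61 to 173 in vehicle-treated osteocytes, so that this change starts from very few reads. Igf2 was at 2.69 CPM in osteocytes with FG-4592 (log2 fold change against vehicle 0.76 ± 0.348 (SE), FDR = 0.0908). Markers of other cell types moved along: Adipoq went from 7.77 CPM in vehicle-treated MSCs to 1470 CPM in vehicle-treated osteocytes, and the cartilage collagen Col2a1 from 62.7 CPM under vehicle to 294 CPM under FG-4592 in osteocytes. Of the other 2 chondrocyte markers, Acan was at or near 0 in all conditions, and Col10a1 did not exceed a mean of 2.82 CPM. With FG-4592 in osteocytes the adipocyte marker Fabp4 rose from 104 to 238 CPM, and Adipoq was at 1370 CPM. Of the 11 osteoblast and osteocyte markers tested, 1 was called up there (Fgf23, from a mean of 0.0251 CPM) and 4 down: Phex (log2 fold change −4.35), Dmp1 (−2.44), Ibsp (−1.55) and Bglap (−1.28). Their part in the H19 result was not tested.

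Dubr (chr16:50719294-50732773, minus strand, ENSMUSG00000022639.14), named for its binding upstream of Dppa2, was called up in both states. It was measured at 43.4, 44.6 and 44.8 CPM in vehicle-treated MSCs, 145, 144 and 152 CPM in FG-4592-treated MSCs, 39.5, 33.8 and 35.8 CPM in vehicle-treated osteocytes and 151, 159 and 152 CPM in FG-4592-treated osteocytes. FG-4592-treated and vehicle-treated libraries were far apart in either state, and the treated levels of both states met. Dubr rose 3.31-fold in MSCs (log2 fold change 1.73 ± 0.0562 (SE), FDR = 7.11e-13) and 4.23-fold in osteocytes (2.08 ± 0.057 (SE), FDR = 5.88e-14). The difference between the responses was small but passed the FDR cutoff (0.35 ± 0.0778 (SE), FDR = 0.00341), and under vehicle osteocytes were a little lower than MSCs (−0.28 ± 0.0561 (SE), FDR = 0.000506). No exonic base of Dubr is shared with a protein-coding gene.

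F730043M19Rik (chr12:33111711-33147597, minus strand) and AU020206 (chr7:75769038-75782099, minus strand) were counted at 1000 or more only in part of the conditions, so that their differences are described without a test. F730043M19Rik was at 5.19, 4.38 and 3.6 CPM in vehicle-treated MSCs, 16.7, 14.2 and 14.5 CPM in FG-4592-treated MSCs, 2.97, 3.77 and 1.79 CPM in vehicle-treated osteocytes and 83.3, 76.9 and 76.8 CPM in FG-4592-treated osteocytes. The FG-4592-treated libraries were above the vehicle-treated ones in both states, with fitted log2 fold changes of 1.79 ± 0.17 (SE) in MSCs and 4.80 ± 0.183 (SE) in osteocytes, where the fold was 27.9. Its start lies 96 bases from that of Atxn7l1, a protein-coding gene on the opposite strand, for which the log2 fold changes were 0.54 in MSCs and 1.34 in osteocytes. AU020206 was at 4.12, 4.11 and 3.06 CPM in vehicle-treated MSCs, 11.3, 11.6 and 12.2 CPM in FG-4592-treated MSCs, 21.7, 23.4 and 22.8 CPM in vehicle-treated osteocytes and 39.5, 34.8 and 37.2 CPM in FG-4592-treated osteocytes. These 4 sets of libraries did not overlap and followed the order of the conditions as written here. In osteocytes, where both conditions reached 1000 counts, the difference with FG-4592 passed the FDR cutoff but not the fold cutoff (0.72 ± 0.0924 (SE), FDR = 9e-06). In MSCs the fitted value was 1.64 ± 0.105 (SE), and between the states under vehicle it was 2.59 ± 0.105 (SE).

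**Figure D2:**
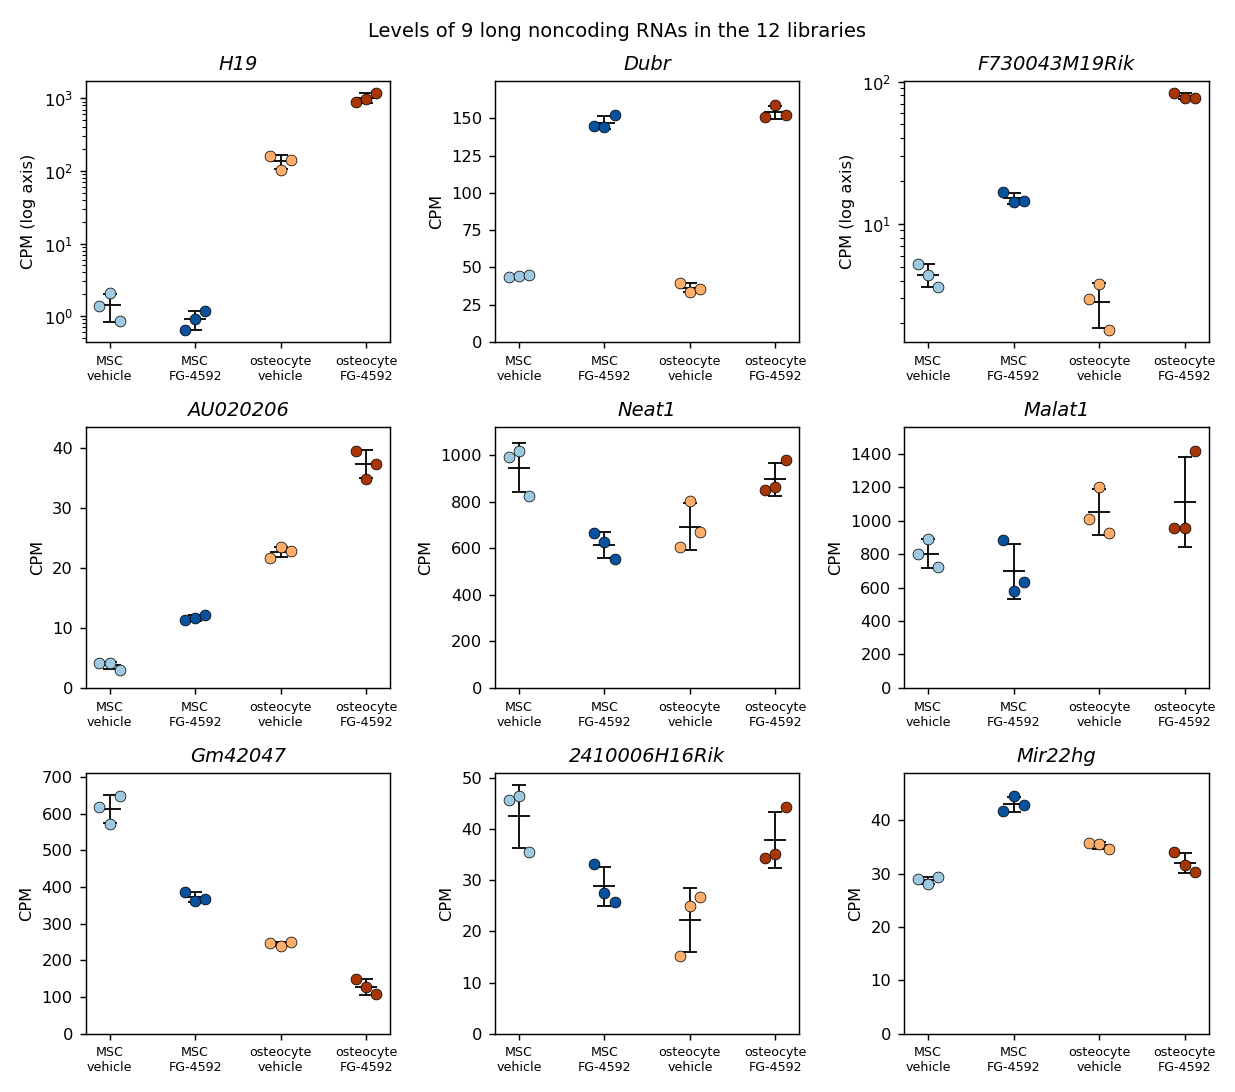
CPM of 9 members in the 12 libraries, with each point a library, the horizontal dash the mean and the bar 1 SD on either side (n = 3). H19 and F730043M19Rik are on a log axis and the other panels start at 0. Dubr libraries lie between 33.8 and 44.8 CPM with vehicle and between 144 and 159 CPM with FG-4592 in both states, while Neat1 is lower with FG-4592 in MSCs and higher in osteocytes.

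No member tested was called down with FG-4592 in either state. Gm42047 (chr8:121833247-121841178, plus strand) was at 619, 571 and 647 CPM in vehicle-treated MSCs, 387, 362 and 366 CPM in FG-4592-treated MSCs, 247, 240 and 249 CPM in vehicle-treated osteocytes and 150, 128 and 107 CPM in FG-4592-treated osteocytes. The 12 libraries fall into 4 groups that do not overlap, and the lowest is FG-4592-treated osteocytes. Gm42047 fell between vehicle-treated MSCs and osteocytes, by a factor of 2.5 (log2 fold change −1.32 ± 0.0882 (SE), FDR = 3.21e-09). With FG-4592 it was lower under the FDR cutoff in MSCs (−0.72 ± 0.0871 (SE), FDR = 5.82e-06) and in osteocytes (−0.93 ± 0.0879 (SE), FDR = 2.61e-07), and the responses did not differ at the cutoff (−0.21 ± 0.123 (SE), FDR = 0.233). Near-identical stretches in 5 other genes cover up to 56.8% of its length, so that its counts are uncertain. AI506816 was at 290, 296 and 288 CPM in vehicle-treated MSCs, 248, 250 and 245 CPM in FG-4592-treated MSCs, 156, 150 and 154 CPM in vehicle-treated osteocytes and 85.4, 88.4 and 66.8 CPM in FG-4592-treated osteocytes. Its libraries did not overlap between any pair of conditions. The decrease was larger in osteocytes (−0.93 ± 0.0756 (SE), FDR = 4.47e-08) than in MSCs (−0.23 ± 0.0742 (SE), FDR = 0.0199), and this difference passed the FDR cutoff (−0.70 ± 0.106 (SE), FDR = 0.000152). Gm34256, described without a test, went from 17.2 ± 1.6 CPM in vehicle-treated MSCs to 4.95 ± 0.666 with FG-4592 and from 2.83 ± 0.484 in vehicle-treated osteocytes to 1.17 ± 0.267 with FG-4592 (SD, n = 3).

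Across the 34 members tested in both states, 13 (38.2%) passed the FDR cutoff in each, compared with 35.4% of the 7092 genes of any type with a mean of 1000 counts in all 4 conditions. Of these 13, 3 were higher and 6 lower in both states, and 4 went in opposite directions: Neat1, Peg13, 2410006H16Rik and Cep83os. The same direction was held by 26.5% of the 34 members and 31% of the 7092 genes, and opposite directions by 11.8% and 4.46%. A further 6 passed in MSCs alone and 3 in osteocytes alone, which by itself does not show that the states differ. The difference between responses passed the FDR cutoff for 12 members, 9 with the higher value in osteocytes and 3 with the lower.

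**Figure D3:**
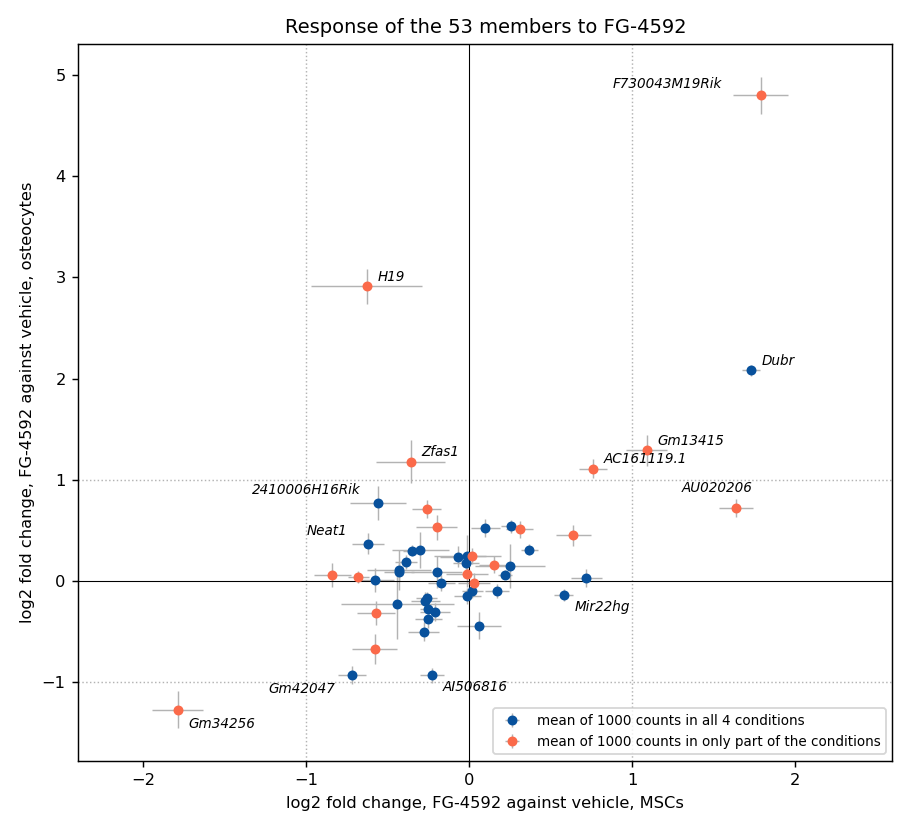
Log2 fold change of FG-4592 against vehicle for the 53 members in MSCs (x axis) and osteocytes (y axis), with bars of 1 SE on either side. Blue points are the 34 members at 1000 counts in all conditions, red points those described without a test in at least 1 contrast, and dotted lines mark a log2 fold change of 1. Dubr and F730043M19Rik lie high in both directions, H19 in osteocytes alone, and Neat1 and 2410006H16Rik lie in the quadrant of lower values in MSCs and higher values in osteocytes.

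Neat1, the scaffold of paraspeckles, and Malat1, which is localized to nuclear speckles, are neighbours on chromosome 19. Counts were made per gene on libraries enriched for mRNA, and isoforms of either RNA were not told apart. Neat1 (chr19:5824708-5845478, minus strand) was at 991, 1020 and 825 CPM in vehicle-treated MSCs, 665, 627 and 555 CPM in FG-4592-treated MSCs, 606, 804 and 668 CPM in vehicle-treated osteocytes and 851, 863 and 978 CPM in FG-4592-treated osteocytes. In MSCs every FG-4592-treated library was below the vehicle-treated ones, and in osteocytes every FG-4592-treated library was above them. Neat1 was lower with FG-4592 in MSCs (−0.62 ± 0.1 (SE), FDR = 0.000117) and higher in osteocytes (0.37 ± 0.0999 (SE), FDR = 0.00606), each under the fold cutoff. The difference between the responses was 0.99 ± 0.141 (SE), FDR = 8.89e-05, just under the fold cutoff. Within conditions its libraries were ordered like those of the small nucleolar RNA hosts described next. Malat1 (chr19:5795690-5802672, minus strand) was at 801, 889 and 721 CPM in vehicle-treated MSCs, 885, 579 and 631 CPM in FG-4592-treated MSCs, 1010, 1200 and 929 CPM in vehicle-treated osteocytes and 956, 959 and 1420 CPM in FG-4592-treated osteocytes. Its treated and untreated libraries overlapped in both states, with log2 fold changes of −0.20 ± 0.159 (SE), FDR = 0.352 in MSCs and 0.09 ± 0.159 (SE), FDR = 0.698 in osteocytes. A p that misses the cutoff does not show equal levels, and the SE of Malat1 was larger than that of Neat1.

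Of 9 genes for paraspeckle proteins, which Neat1 assembles, 2 passed the FDR cutoff higher and 3 lower with FG-4592 in MSCs, and 0 higher and 8 lower in osteocytes, where Nudt21 was at 0.09 (FDR = 0.213). In either direction 38.1% of all genes tested passed in MSCs and 43.8% in osteocytes. The median log2 fold changes were 0.04 and −0.26, beside −0.05 and 0 over all genes tested. Their summed level went from 1620 to 1690 CPM in vehicle-treated osteocytes to 1210 to 1240 CPM with FG-4592. Pspc1, a core paraspeckle protein, fell in MSCs (log2 fold change −1.04 ± 0.0876 (SE), FDR = 9.78e-08). Tardbp went in opposite directions, at 0.30 in MSCs and −0.43 in osteocytes, and its response differed between the states (−0.72 ± 0.103 (SE), FDR = 8.92e-05).

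Hosts of small nucleolar RNAs, whose introns yield the guides for modification of ribosomal RNA, made up 6 members: 2410006H16Rik, Gas5, Zfas1, 1110038B12Rik, Snhg17 and Snhg18. By gene type alone there were 7, and AI506816 was set aside because its small RNA gene, Mir3096, is typed as a small nucleolar RNA but named as a microRNA. Many such transcripts are known targets of nonsense-mediated decay. The values are those of the host transcript, not of the small RNAs. 2410006H16Rik (chr11:62602877-62604807, plus strand), which holds Snord49a, Snord49b and Snord65, was at 45.6, 46.4 and 35.5 CPM in vehicle-treated MSCs, 33.2, 27.5 and 25.7 CPM in FG-4592-treated MSCs, 15.2, 25.0 and 26.8 CPM in vehicle-treated osteocytes and 34.4, 35.1 and 44.3 CPM in FG-4592-treated osteocytes. Its treated libraries lay below the vehicle-treated ones in MSCs and above them in osteocytes. The difference between both responses was called (1.33 ± 0.242 (SE), FDR = 0.000751), from −0.56 ± 0.17 (SE), FDR = 0.015 in MSCs and 0.77 ± 0.172 (SE), FDR = 0.00165 in osteocytes. The first vehicle-treated osteocyte library was the lowest of its group, and without it the difference between responses was 1.07.

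1110038B12Rik, with Snord52 in its span, was at 47.6, 49.3 and 37.8 CPM in vehicle-treated MSCs, 33.2, 29.6 and 27.1 CPM in FG-4592-treated MSCs, 16.2, 22 and 19.4 CPM in vehicle-treated osteocytes and 18.6, 18.3 and 21.1 CPM in FG-4592-treated osteocytes. It fell 2.34-fold between vehicle-treated MSCs and osteocytes (−1.23 ± 0.118 (SE), FDR = 2.79e-07). With FG-4592 it was lower under the FDR cutoff in MSCs (−0.58 ± 0.116 (SE), FDR = 0.000764) and overlapped in osteocytes, and the responses differed (0.59 ± 0.166 (SE), FDR = 0.0155). Snhg18, the host of Snord123, was at 22.2, 25.5 and 21.4 CPM in vehicle-treated MSCs, 17.9, 17.0 and 16.3 CPM in FG-4592-treated MSCs, 22.5, 23.4 and 28.5 CPM in vehicle-treated osteocytes and 25.8, 26.4 and 26.9 CPM in FG-4592-treated osteocytes. It was lower with FG-4592 in MSCs (−0.43 ± 0.0928 (SE), FDR = 0.00139), and its response differed between states (0.52 ± 0.13 (SE), FDR = 0.00776).

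Gas5, a host of 10 genes typed as small nucleolar RNAs, of which 1 is named as a microRNA (Mir5117), was at 111, 124 and 82.1 CPM in vehicle-treated MSCs, 108, 76.4 and 73.9 CPM in FG-4592-treated MSCs, 52.1, 70.6 and 78.6 CPM in vehicle-treated osteocytes and 75.4, 74.1 and 100 CPM in FG-4592-treated osteocytes. Its libraries overlapped between treatments in both states, and neither response passed the cutoff, though it was lower in vehicle-treated osteocytes than in MSCs (−0.66 ± 0.177 (SE), FDR = 0.00539). Zfas1, the host of Snord12, reached 1000 counts in FG-4592-treated osteocytes only, with 15.0, 15.6 and 11.2 CPM in vehicle-treated MSCs, 13.7, 10.2 and 8.64 CPM in FG-4592-treated MSCs, 5.66, 8.45 and 9.94 CPM in vehicle-treated osteocytes and 15.5, 15.7 and 23.1 CPM in FG-4592-treated osteocytes. The treated osteocyte libraries were above the vehicle-treated ones, and the fitted log2 value was 1.18 ± 0.213 (SE). Snhg17 was at 12.2, 13.9 and 13.7 CPM in vehicle-treated MSCs, 13.3, 13.9 and 13.4 CPM in FG-4592-treated MSCs, 17.1, 18.8 and 16.3 CPM in vehicle-treated osteocytes and 17.9, 14.8 and 18.7 CPM in FG-4592-treated osteocytes, and its FG-4592-treated and vehicle-treated libraries overlapped in both states.

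The hosts and some other members shared a pattern among libraries of 1 condition. In vehicle-treated osteocytes the first library was the lowest for 5 of the 6 hosts, in FG-4592-treated osteocytes the third was the highest for 6, in vehicle-treated MSCs the third was the lowest for 5 and the second the highest for 6, and in FG-4592-treated MSCs the first was the highest for 5. Over all 53 members the same library stood at that end for 16, 20, 30, 22 and 23 members, in this order. All 5 features were seen in 8 members: 5 hosts (2410006H16Rik, Gas5, Zfas1, 1110038B12Rik and Snhg18), Gm10076, Ndufb1-ps and Neat1. Malat1 had 4 of the 5, without the one in vehicle-treated osteocytes. The part of such differences between libraries in the results for the hosts and for Neat1 was not tested. For the lists that follow, 38.1% of all genes tested passed the FDR cutoff with FG-4592 in MSCs and 43.8% in osteocytes, in either direction. Of the 4 box C/D snoRNP protein genes, which bind this class of RNA, 0 passed the FDR cutoff higher and 3 lower with FG-4592 in osteocytes, with a median log2 fold change of −0.57, while in MSCs 0 were higher and 1 lower. The rRNA methyltransferase Fbl was at −0.57 ± 0.144 (SE, FDR = 0.00382) in osteocytes. Of the 4 box H/ACA genes, 2 were lower in osteocytes and 0 passed in MSCs. Of 7 nonsense-mediated decay factors, 3 passed higher and 3 lower in osteocytes, and 2 higher and 1 lower in MSCs, with medians of 0.05 and −0.05.

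Of the 4 microRNA hosts, Mir22hg and 3110039I08Rik were higher with FG-4592 in MSCs and Dnm3os was lower in both states. Mir22hg (chr11:75461539-75466676, plus strand), whose exons hold miR-22, was at 29.0, 28.1 and 29.4 CPM in vehicle-treated MSCs, 41.7, 44.5 and 42.9 CPM in FG-4592-treated MSCs, 35.7, 35.6 and 34.6 CPM in vehicle-treated osteocytes and 34.0, 31.6 and 30.4 CPM in FG-4592-treated osteocytes. The FG-4592-treated MSC libraries were above all others, and the log2 fold change in MSCs was 0.58 ± 0.0595 (SE), FDR = 9.67e-07. In osteocytes it was −0.14 ± 0.0594 (SE), FDR = 0.0695, and the difference between responses passed the FDR cutoff (−0.72 ± 0.0841 (SE), FDR = 1.37e-05). 3110039I08Rik (chr9:41327077-41716994, plus strand), the host of miR-100, let-7a-2 and miR-125b-1, was at 42.3, 45.6 and 43.8 CPM in vehicle-treated MSCs, 77.1, 71.0 and 68.8 CPM in FG-4592-treated MSCs, 63.2, 63.6 and 50.8 CPM in vehicle-treated osteocytes and 64.9, 64.5 and 51.5 CPM in FG-4592-treated osteocytes. It had the same form, at 0.72 ± 0.0934 (SE), FDR = 1.28e-05 in MSCs, 0.03 ± 0.0927 (SE), FDR = 0.843 in osteocytes and −0.69 ± 0.131 (SE), FDR = 0.00109 for the difference. Dnm3os (chr1:162217623-162225550, plus strand), an RNA opposite to Dnm3 that yields miR-199a and miR-214, was at 28.9, 29.8 and 27.8 CPM in vehicle-treated MSCs, 22.9, 23.3 and 25.2 CPM in FG-4592-treated MSCs, 39.8, 32.6 and 33.0 CPM in vehicle-treated osteocytes and 25.5, 27.5 and 21.8 CPM in FG-4592-treated osteocytes. It was lower with FG-4592 in both states (−0.28 ± 0.0927 (SE), FDR = 0.0274 in MSCs and −0.50 ± 0.0923 (SE), FDR = 0.000334 in osteocytes), and these responses did not differ at the cutoff (−0.22 ± 0.131 (SE), FDR = 0.245). H19, the fourth host, was described above. Zswim6, which holds Gm22118, was at 21.2, 20.4 and 20.5 CPM in vehicle-treated MSCs, 19.5, 17.9 and 16.3 CPM in FG-4592-treated MSCs, 33.1, 29.4 and 26.5 CPM in vehicle-treated osteocytes and 22, 24.7 and 25.2 CPM in FG-4592-treated osteocytes. Every vehicle-treated osteocyte library was above all others, and it was lower with FG-4592 in osteocytes (−0.31 ± 0.0897 (SE), FDR = 0.0104) and higher in vehicle-treated osteocytes than MSCs (0.52 ± 0.0902 (SE), FDR = 0.000151), both under the fold cutoff.

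Peg13, an imprinted RNA made from the paternal allele within an intron of Trappc9, was at 67.0, 64.1 and 66.9 CPM in vehicle-treated MSCs, 51.4, 49.9 and 54.0 CPM in FG-4592-treated MSCs, 99.7, 98.7 and 101 CPM in vehicle-treated osteocytes and 118, 119 and 132 CPM in FG-4592-treated osteocytes. The 4 conditions did not overlap. It was lower with FG-4592 in MSCs (−0.35 ± 0.0532 (SE), FDR = 6.28e-05), higher in osteocytes (0.30 ± 0.0523 (SE), FDR = 0.000187), and the responses differed (0.65 ± 0.0746 (SE), FDR = 1.1e-05), while vehicle-treated osteocytes were above MSCs (0.60 ± 0.0528 (SE), FDR = 1.01e-07). Trappc9 itself was at −0.15 ± 0.0607 (SE, FDR = 0.0643) in MSCs and was lower with FG-4592 in osteocytes, at −0.20 ± 0.0607 (SE, FDR = 0.0145), and its responses did not differ at the cutoff (−0.05 ± 0.0858 (SE), FDR = 0.741). Of the 7 neighbours at imprinted loci, 3 were tested, and the other 4 (Dlk1, Rtl1, Cdkn1c and Kcnq1) had too few counts. Gnas, the imprinted gene of a G protein subunit, was higher with FG-4592 in osteocytes, from 723 to 841 CPM (log2 fold change 0.22 ± 0.0402 (SE), FDR = 0.000325), and lower in vehicle-treated osteocytes than MSCs (−0.49 ± 0.0403 (SE), FDR = 4.23e-08). In MSCs it was at −0.06 (FDR = 0.307), and the difference between responses was 0.27 ± 0.0569 (SE, FDR = 0.00218). Firre, an X-linked RNA that organizes nuclear contacts, was at 32.2, 31.7 and 30.1 CPM in vehicle-treated MSCs, 29.5, 28.0 and 26.3 CPM in FG-4592-treated MSCs, 45.1, 55.1 and 46.7 CPM in vehicle-treated osteocytes and 45.7, 46.6 and 52.5 CPM in FG-4592-treated osteocytes. All osteocyte libraries were above all MSC libraries (0.64 ± 0.08 (SE), FDR = 4.98e-06 under vehicle), and FG-4592 gave no difference past the cutoff in either state (−0.17 ± 0.0806 (SE), FDR = 0.122 in MSCs and −0.02 ± 0.079 (SE), FDR = 0.867 in osteocytes).

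Several well known RNAs differed little between conditions. Tug1, a broadly expressed nuclear and cytoplasmic RNA, was at 233, 233 and 240 CPM in vehicle-treated MSCs, 228, 234 and 251 CPM in FG-4592-treated MSCs, 281, 235 and 233 CPM in vehicle-treated osteocytes and 243, 236 and 222 CPM in FG-4592-treated osteocytes, and no contrast passed the FDR cutoff, from 0.02 ± 0.0666 (SE), FDR = 0.878 in MSCs to −0.10 ± 0.0666 (SE), FDR = 0.27 in osteocytes. 2900097C17Rik (Norad) was at 440, 424 and 424 CPM in vehicle-treated MSCs, 509, 493 and 498 CPM in FG-4592-treated MSCs, 550, 514 and 502 CPM in vehicle-treated osteocytes and 558, 540 and 533 CPM in FG-4592-treated osteocytes. It was slightly higher with FG-4592 in MSCs (0.22 ± 0.0447 (SE), FDR = 0.000968) and in vehicle-treated osteocytes than MSCs (0.28 ± 0.0447 (SE), FDR = 6.78e-05), with the libraries apart in each case. 1700020I14Rik (Oip5os1, also known as Cyrano, which directs the decay of miR-7) was higher with FG-4592 in both states (0.37 ± 0.051 (SE), FDR = 2.12e-05 and 0.31 ± 0.0509 (SE), FDR = 9.87e-05). Of the members named as opposite to a protein-coding gene, Brip1os was at 134, 140 and 124 CPM in vehicle-treated MSCs, 117, 110 and 108 CPM in FG-4592-treated MSCs, 107, 105 and 111 CPM in vehicle-treated osteocytes and 89.2, 89.5 and 88.1 CPM in FG-4592-treated osteocytes, with a small decrease in both states (−0.25 ± 0.0512 (SE), FDR = 0.000975 and −0.28 ± 0.0514 (SE), FDR = 0.000338). Cep83os was at 29.1, 28.5 and 27.8 CPM in vehicle-treated MSCs, 21.1, 21.7 and 22.3 CPM in FG-4592-treated MSCs, 26.6, 24.9 and 24.6 CPM in vehicle-treated osteocytes and 27.8, 31.2 and 27.5 CPM in FG-4592-treated osteocytes. It was lower in MSCs (−0.39 ± 0.0681 (SE), FDR = 0.000251) and higher in osteocytes (0.19 ± 0.0678 (SE), FDR = 0.0343), and the responses differed (0.58 ± 0.0961 (SE), FDR = 0.000372). Rab10os was at 17.6, 17.4 and 17.3 CPM in vehicle-treated MSCs, 16.7, 18.4 and 16.3 CPM in FG-4592-treated MSCs, 19.2, 18.5 and 16.5 CPM in vehicle-treated osteocytes and 20.7, 20.9 and 19.6 CPM in FG-4592-treated osteocytes, between 16.3 and 20.9 CPM in all.

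Because a read pair was counted for each gene it overlapped and no strand was used, members that share exonic bases with a protein-coding gene can hold reads of that gene. There were 14 such members of 53 (26.4%), compared with 634 of the 1534 other lncRNAs tested (41.3%) and 21.8% of all genes tested. They shared bases with 18 protein-coding genes, on the opposite strand in 16 of the pairs. The largest share was in 1110002L01Rik, antisense to Kif3c and Asxl2, with 67.1% of its exonic bases. It was followed by Brip1os (20.2%, with Ints2 and Med13), B230354K17Rik (17.8%, with Cdc5l and Spats1), 4933431E20Rik (16.7%, with Gstm5 and Eps8l3), Ndufb1-ps (12.7%, with Cpsf2), Mir22hg (10.7%, with Tlcd2) and 6530402F18Rik (10.1%, with Ntng2). Gm13415 shared 6.48% with Pax8, AC161119.1 5.46% with Lox, Tug1 4.96% with Morc2a, Zfas1 4.31% with Znfx1, Gm26782 3.52% with Tep1, Rab10os 2.33% with Rab10 and 9330175E14Rik 1.31% with Nlrc5.

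The member's count minus that of its coding partners is a lower bound on the pairs that no such gene also received. This bound was above 0 in all 12 libraries for 3 of the 14: Mir22hg (74.0% to 92.2% of its count), Tug1 (57.2% to 70.0%) and Gm13415 (35.7% to 94.3%). Mir22hg and Tlcd2 went in opposite directions with FG-4592 in MSCs, at 0.58 and −0.68. Gm13415, not tested there, had a fitted value of 1.09, and Pax8 was at −0.34 ± 0.273 (SE, FDR = 0.363). For the other 11 members the counts alone set no such limit in all libraries. For 1110002L01Rik, Brip1os, B230354K17Rik, Ndufb1-ps, AC161119.1, Zfas1, Gm26782, Rab10os and 9330175E14Rik the bound was 0 in all 12 libraries. It was above 0 in 5 libraries for 4933431E20Rik and in 7 for 6530402F18Rik.

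AC161119.1 shares 30 bases with Lox, the lysyl oxidase that crosslinks collagen, on the opposite strand. It was at 20.8, 19.8 and 19.5 CPM in vehicle-treated MSCs, 37.8, 32.0 and 32.1 CPM in FG-4592-treated MSCs, 5.78, 5.57 and 6.57 CPM in vehicle-treated osteocytes and 12.3, 13.1 and 13.2 CPM in FG-4592-treated osteocytes. Its treated libraries were above the vehicle-treated ones in both states, with 0.76 ± 0.0848 (SE), FDR = 2.29e-06 in MSCs and a fitted value of 1.11 ± 0.0913 (SE) in osteocytes, where it was not tested. Lox was at 1.01 in MSCs and 1.24 in osteocytes, and how many of the reads on AC161119.1 come from Lox cannot be told apart in these counts. Under vehicle, osteocytes against MSCs gave −1.74 for AC161119.1 and −0.19 for Lox. 1110002L01Rik was at 12.0, 14.2 and 14.9 CPM in vehicle-treated MSCs, 20.6, 20.1 and 23.1 CPM in FG-4592-treated MSCs, 13.4, 11.6 and 11.6 CPM in vehicle-treated osteocytes and 17.1, 14.5 and 18.2 CPM in FG-4592-treated osteocytes. It had fitted values of 0.64 ± 0.107 (SE) in MSCs and 0.45 ± 0.108 (SE) in osteocytes, while Asxl2 was at 0.49 and 0.28 and Kif3c at 0 and 0.30. B230354K17Rik was at 58.3, 55.5 and 59.4 CPM in vehicle-treated MSCs, 67.3, 66.8 and 73.0 CPM in FG-4592-treated MSCs, 59.6, 52.6 and 50.5 CPM in vehicle-treated osteocytes and 79.2, 80.4 and 76.5 CPM in FG-4592-treated osteocytes. It was higher with FG-4592 in MSCs (0.26 ± 0.0619 (SE), FDR = 0.00335) and more so in osteocytes (0.54 ± 0.062 (SE), FDR = 2.68e-06, difference 0.28 ± 0.0875 (SE), FDR = 0.0289), and Cdc5l was at 0.02 and −0.01. Spats1, which holds 981 of the shared bases, was at 0.68 ± 0.434 (SE, FDR = 0.244) and 0.80 ± 0.413 (SE, FDR = 0.132), from means of 17.3 to 49.3 counts. 4933431E20Rik was at 16.9, 18.8 and 16.6 CPM in vehicle-treated MSCs, 20.6, 19.4 and 18.9 CPM in FG-4592-treated MSCs, 22.9, 21.2 and 21.8 CPM in vehicle-treated osteocytes and 20.8, 20.3 and 20.6 CPM in FG-4592-treated osteocytes. It lay between 16.6 and 22.9 CPM in all, and no FG-4592 contrast passed. Ndufb1-ps, which RefSeq types as the protein-coding gene Ndufb1, was at 30.1, 38.6 and 21.2 CPM in vehicle-treated MSCs, 32.9, 15.6 and 18.1 CPM in FG-4592-treated MSCs, 13.2, 33.6 and 39.9 CPM in vehicle-treated osteocytes and 20.5, 19.6 and 33.7 CPM in FG-4592-treated osteocytes, with wide overlap throughout.

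**Figure D4:**
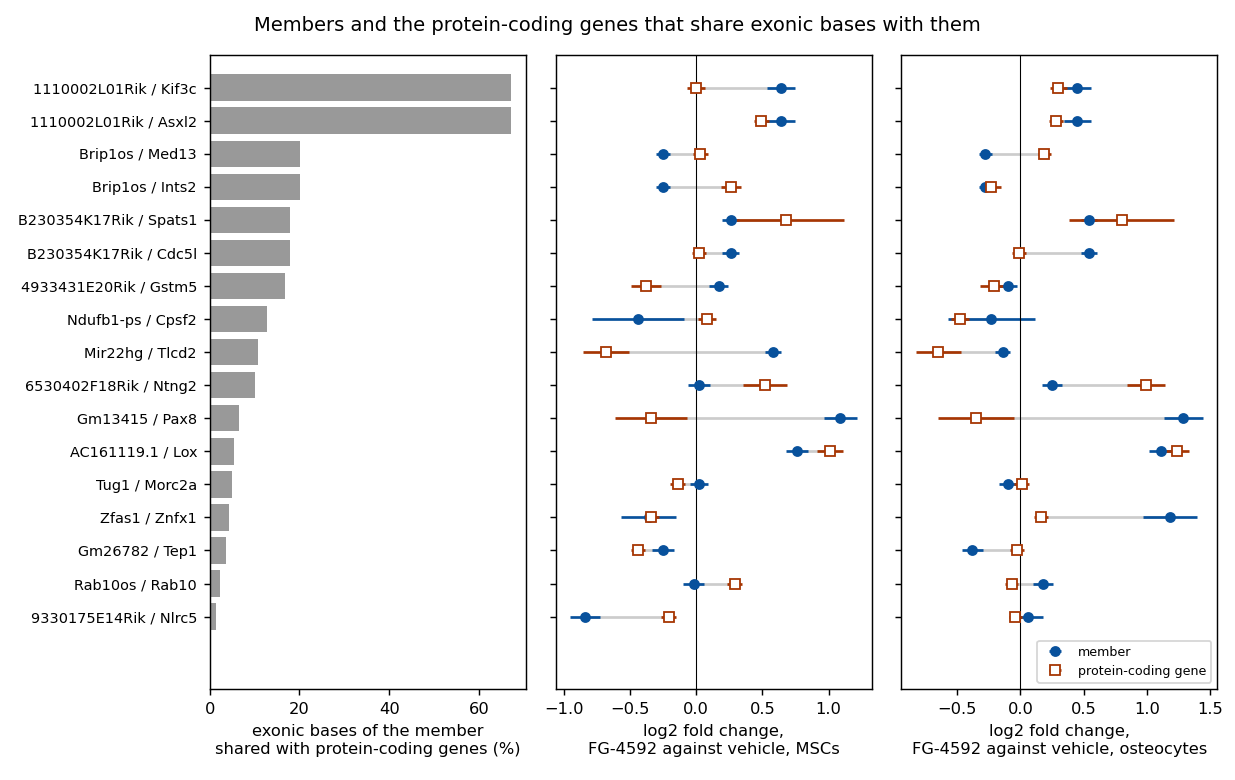
Percentage of a member's exonic bases shared with protein-coding genes (left) and log2 fold change with FG-4592 in MSCs (middle) and osteocytes (right) for the member (filled circles) and each tested protein-coding gene (open squares), with bars of 1 SE on either side. AC161119.1 and Lox lie close together in both states, while Mir22hg and Tlcd2 lie on opposite sides of 0 in MSCs.

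Annotation of the members was not uniform. RefSeq on the same build typed 38 as lncRNA, 6 as protein-coding (1810058I24Rik, Gm37494, Gm46430, Ndufb1-ps, Tctn2 and Zswim6) and 2 as pseudogene, and 7 had no entry. A protein-coding start on the opposite strand lay within 1000 bases of the start of 15 members (28.3%), and of 602 of the 1587 lncRNAs tested (37.9%). In MSCs 11 of the 15 pairs had log2 fold changes with FG-4592 of the same sign and 3 of opposite signs, with Ankrd11 at 0, and in osteocytes 9 and 6. Of the 7 pairs whose coding gene passed the FDR cutoff in MSCs, 6 had the same sign, as had 7 of 9 in osteocytes. Snhg18 and Sema5a, one of the exceptions, were at −0.43 and −0.56 in MSCs but 0.09 and −1.19 in osteocytes. F730043M19Rik and Atxn7l1 were at 1.79 and 0.54 in MSCs and at 4.80 and 1.34 in osteocytes. 1110002L01Rik, 9330175E14Rik, Gm26782, Zfas1, 4933431E20Rik, B230354K17Rik and Tug1 share exonic bases with their partner in these pairs, and shared reads were counted for both genes. F730043M19Rik, Zfas1, AI480526 and 2810013P06Rik reached 1000 counts only in FG-4592-treated osteocytes, so that their selection favoured a rise there. The part of either in the signs was not tested, and no share was computed for other pairs. A stretch of at least 100 bases at 98% identity or more to another gene was found in 13 members, and it covered most of the length of Gm10076, AC158975.2, Gm42047 and 2900097C17Rik.

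The share of a library in the members is a description, since the same counts chose them. In MSCs it was 0.799% ± 0.0363 under vehicle and 0.744% ± 0.0884 under FG-4592 (SD, n = 3). The difference of −0.0549 percentage points became −0.012 without the third and −0.1 without the second FG-4592-treated library, and −0.0862 without Gm42418. In osteocytes the share was 0.779% ± 0.0404 with vehicle and 0.885% ± 0.114 with FG-4592 (SD, n = 3). Here the difference of 0.106 became 0.169 without the first and 0.0588 without the second FG-4592-treated library, and 0.0951 without Gm42418. Without Gm42418 the libraries of the treatments did not overlap in either state, at 0.509% to 0.548% against 0.431% to 0.475% in MSCs and 0.469% to 0.517% against 0.556% to 0.643% in osteocytes. H19 alone went from 0.0139% of the counts in vehicle-treated osteocytes to 0.0974% in FG-4592-treated ones.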

How the data were processed

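RNAseq was done on 12 libraries of MPC2 cells, which the authors prepared with an mRNA enrichment step. The authors aligned paired reads to mm10 with STAR 2.7.2a and assigned them to Gencode M22 genes with featureCounts (Subread 1.6.2), requiring a mapping quality of at least 10, crediting a pair to every gene it overlapped and using no strand option. They deposited raw counts per gene, with no normalization. The cell type and treatment given in the labels set the groups. The members and lists were chosen with earlier results of these data known.

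A gene entered the test if its count exceeded 10 in 3 or more libraries (16484 of 56350 genes). The quasi-likelihood test of edgeR 4.0.16 (R 4.3.3) was used on TMM-scaled libraries, with 1 coefficient for each condition and Benjamini-Hochberg adjustment over all genes tested. Cutoffs were an absolute log2 fold change of 1 and an FDR of 0.05. Values in every library were given for the 8 members with the highest RPKM, for called members and for the 5 members with the largest shared exonic portion. They were also given for the host, imprinted, nuclear-body and X-linked families and for members named as a protein-coding gene plus os. Other members were named after their values were seen. The code was also run on simulated counts.

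Alternatives were DESeq2 1.42.0, a likelihood ratio test, filterByExpr, no filter, scaling by RLE, by upper quartiles or by library totals alone, the replicate number as a block, removal of genes with shared exonic bases, the lower bound on unshared counts, other count thresholds and each library left out in turn. Shared bases were computed in GenomicRanges 1.54.1, near-identical stretches of at least 100 bases with blastn 2.17.0 on Gencode M21 transcripts. SEs cover the spread between these libraries.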

Additional observations from a re-analysis of the deposited data

Results flagged for a closer look

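The response to FG-4592 differed between osteocytes and MSCs, by edgeR's test of the difference itself at an FDR under 0.05, for 12 of the 34 members tested (35.3%), beside 35.7% of the genes of any type with a mean of 1000 counts in all 4 conditions. On the log2 scale, osteocyte minus MSC response, the largest positive values were those of 2410006H16Rik (1.33), Neat1 (0.99), Peg13 (0.65), 1110038B12Rik (0.59), Cep83os (0.58) and Snhg18 (0.52). Smaller positive values were those of Gm28875 (0.42), Dubr (0.35) and B230354K17Rik (0.28). Negative values were those of Mir22hg (−0.72), AI506816 (−0.70) and 3110039I08Rik (−0.69), of which the microRNA hosts were higher with FG-4592 in MSCs and AI506816 was lower in both states, by more in osteocytes.

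For 2810013P06Rik every FG-4592-treated library was below the vehicle-treated ones in MSCs and above them in osteocytes, a difference of 0.97 that was not tested because only part of its conditions reached 1000 counts.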

How the results depend on the processing

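All 6 calls of single members remained in each alternative fit run, with log2 fold changes of 1.64 to 1.77 for Dubr in MSCs, 1.98 to 2.13 for Dubr and 2.73 to 3.04 for H19 in osteocytes, −1.36 to −1.24 for Gm42047 and −1.30 to −1.08 for 1110038B12Rik between the vehicle-treated states, and 1.07 to 1.48 for the response difference of 2410006H16Rik. Counts of called members changed as follows, and the cause was not tested except where the setting names it. Over members with a mean of 1000 counts across all 12 libraries, which include members chosen by 1 condition, there were 3 up in MSCs and 4 up in osteocytes with FG-4592, 2 up and 4 down between the vehicle-treated states, and 3 up for the response difference. A threshold of 500 gave 2 up in MSCs and 3 down between the states, and a threshold of 2000 gave 1 down between the states and 0 up for the response difference. Library size alone, which shifted the median log2 fold change of all genes to −0.13 in MSCs and −0.096 in osteocytes, gave 2 down in osteocytes (AI506816 and Gm42047). The lower bound on unshared counts gave 1 up between the states (4933431E20Rik). For this member the bound was above 0 in only 5 of the 12 libraries and was set to 0 in the others. Its log2 fold change was 0.34 in the main fit and reached 10.08 over the alternatives. No filter, and removal of genes with shared exonic bases, each gave 2 up for the response difference, with Neat1 added. With 1 library left out, counts ranged from 0 to 1 down in osteocytes (1 without the first or the second FG-4592-treated library), from 1 to 2 up for the response difference, and from 2 to 3 down between the states. Neat1 was added to the response difference without the third vehicle-treated or the first or second FG-4592-treated MSC library, or without the second vehicle-treated or the first or second FG-4592-treated osteocyte library. 2410006H16Rik was added between the states without the third vehicle-treated library of MSCs or of osteocytes.

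The replicate numbers did not pair the libraries: the correlation of deviations between libraries with the same number lay between −0.135 and 0.054. With the replicate block, 1 member was called up in MSCs, 2 up in osteocytes, 2 down between the states and 1 up for the response difference, with the response difference of 2410006H16Rik at 1.33.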
